A study of Mus musculus with 7 samples.

Results

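The genes described here are 7 tetraspanins of the lysosome and cell surface, Cd9, Cd37, Cd53, Cd63, Cd81, Cd82 and Cd151. They were chosen by name and stand in 8 rows of a deposited table of 47643 genes, because Cd37 is listed under 2 gene identifiers. Poly(A) RNA of mouse alveolar macrophages, phagocytes that live in the airspaces of the lung, was sequenced in 7 libraries. The WT group (n = 3) was sorted as CD11c+ F480+ SiglecF+, and its labels name no allele and do not say whether these animals carried a Cre transgene. The cSiah1a/2f/f::Lyz2cre group (n = 3, Lyz2cre below) carried floxed Siah1a and Siah2 with a Cre recombinase driven from Lyz2, the lysozyme M gene of macrophages and other myeloid cells. The cSiah1a/2f/f::CD11ccre group (CD11ccre below) carried these floxed alleles with Cre driven from the promoter of CD11c, the Itgax product, and is a single library. Siah1a and Siah2 encode RING-type ubiquitin ligases, and the design asks how their deletion alters the macrophage transcriptome. The labels used here give no age. They do not state whether each replicate is its own animal, so every p-value below reflects the spread among libraries, which may be technical.

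Tetraspanins are small proteins that span the membrane several times and gather integrins, immunoglobulin-superfamily proteins, proteases and antigen-presenting molecules into membrane microdomains. CD63 resides mainly in late endosomes, lysosomes and the vesicles that are released from them as exosomes, whereas CD9, CD81, CD82 and CD151 act largely at the cell surface, and CD37 and CD53 are restricted to leukocytes. In macrophages, CD9 and CD81 are known to restrain cell fusion, and CD9, CD63 and CD81 are the usual markers of extracellular vesicles.

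Levels are given as TPM, the length-scaled share of a library that a transcript takes, and can therefore be compared between genes. The number of reads cannot be recovered from TPM, so depth is unknown and counting intervals are not given. Log2 fold changes were fitted on log2(TPM + 1), a scale on which changes of weakly expressed genes come out too small. An N-fold difference is the ratio of the 2 mean TPM values. A gene is called where its adjusted p from limma, over the 11397 genes whose mean reached 1 TPM, was under 0.05. The libraries held 10883 to 11518 genes at 1 TPM or more. Siah1a stood at 6.72 to 16.6 TPM in the WT libraries, at no more than 0.05 TPM in the Lyz2cre libraries and at 0 in CD11ccre. The share of TPM taken by Ftl1, Fth1 and Chil3 was 4.90% to 5.29% in WT, 14.5% to 16.3% in Lyz2cre and 14.0% in CD11ccre. A rise in a few abundant genes lowers the TPM of all others. The share of mitochondrially encoded genes was 7.54% to 9.25% in WT, 2.67% to 4.61% in Lyz2cre and 4.23% in CD11ccre. A fall in such a share raises the TPM of all others. Lyz2 held 50676 TPM, a share of 5.07%, in the CD11ccre library and 46.6 to 86.25 TPM in the other 6 libraries. CD11ccre against WT thus differed in Lyz2 as well as in Siah deletion, and the parts of these cannot be told apart. Over all genes tested, the median log2 fold change was -0.16 in Lyz2cre and -0.29 in CD11ccre, each against WT, and members are read against this shift. All 13 alveolar macrophage markers passed 1 TPM, with a summed level of 24270 to 27350 TPM in the WT libraries, 59770 to 75140 TPM in the Lyz2cre libraries and 68390 TPM in the CD11ccre library. Most of this sum was Chil3, whereas Siglecf, which encodes an antigen of the sort, averaged 231 ± 23.3 TPM over the WT libraries and 84.5 ± 20.7 TPM over the Lyz2cre libraries (SD, n = 3 each). The other markers moved both ways. Car4 (means of 919 and 2353 TPM), Marco (432 and 1416 TPM) and Fabp4 (284 and 481 TPM) were among those higher in Lyz2cre. Fcgr1 (55.9 and 23.2 TPM), Cidec (325 and 132 TPM) and Krt79 (522 and 219 TPM) were among those lower.

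In Lyz2cre, Cd63 and Cd81 rose, and the other 5 tetraspanins did not pass the test. Cd63 was 2.79-fold and Cd81 1.58-fold higher than in WT. Of the 8 table rows, all of which passed the filter on low values, 2 were called higher and 0 lower. Over all genes tested, 6.76% were called in this comparison, 2.17% higher and 4.60% lower. Unadjusted p from limma was under 0.05 for the rows of Cd63, Cd81, Cd82 and Cd151 and for both rows of Cd37, which moved in opposite directions. Unadjusted results are given here for single rows, without a share over all genes, and are not a result about the family. In CD11ccre against WT, limma called 0 of 8 rows, against 2.89% of all genes (0.895% higher and 1.99% lower), and Cd63 and Cd81 were the 2 with an unadjusted p under 0.05. Between CD11ccre and Lyz2cre limma called 0 of 8 rows, against 0.114% of all genes (0.0439% higher and 0.0702% lower), and 1 row, the second of Cd37, had an unadjusted p under 0.05. The comparisons of Lyz2cre and of CD11ccre with WT use the same WT libraries, so they are not independent of each other. RNA of a sorted population cannot show whether cells with a transcript became fewer or each held less of it.

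The sequences upstream of Cd63 and Cd81, the 2 called members, are shown beside that of Cd9, the most abundant member and one that was not called. They are 200 bases long, end before any exon of the GENCODE M21 annotation or lie outside its exons, and come from RefSeq's GRCm38.p6 assembly (mm10). Each is written 5′ to 3′ on the gene's own strand, at chr10:128909145-128909344 on the plus strand for Cd63, at chr7:143052539-143052738 on the plus strand for Cd81, and at chr6:125494792-125494991 on the minus strand for Cd9. Capitals mark GAGGAAG on either strand, the core bound by the macrophage factor PU.1, in Cd63, and GGGCGG on either strand, the GC box, in Cd81 and Cd9.
Cd63: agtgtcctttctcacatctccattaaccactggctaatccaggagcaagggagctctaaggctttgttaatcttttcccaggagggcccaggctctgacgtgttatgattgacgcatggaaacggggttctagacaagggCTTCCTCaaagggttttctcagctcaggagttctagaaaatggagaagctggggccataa
Cd81: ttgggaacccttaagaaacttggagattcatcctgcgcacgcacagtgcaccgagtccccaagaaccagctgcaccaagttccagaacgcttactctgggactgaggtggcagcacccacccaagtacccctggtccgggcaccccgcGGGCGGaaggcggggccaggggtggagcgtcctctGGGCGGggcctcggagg
Cd9: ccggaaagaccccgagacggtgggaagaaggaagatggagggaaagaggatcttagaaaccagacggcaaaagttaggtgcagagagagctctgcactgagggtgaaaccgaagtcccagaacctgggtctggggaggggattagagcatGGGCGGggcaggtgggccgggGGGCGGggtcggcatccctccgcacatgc
The windows searched ran from 250 bases before to 50 bases after each RefSeq start, and matches on both strands were counted in 32851 such windows. No motif searched contains another. The E-box core CACGTG, found in lysosomal gene promoters and bound by TFEB, stood in 7.15% of all windows. The core of the antioxidant response element, TGACNNNGC, stood in 12.4%. The GC box stood in 35.7% of all windows and the PU.1 core in 13.6%. The TATA box, searched as TATAAA, also stood in 13.6%. The Cd63 window held 1 PU.1 core and no match to the other 4 motifs, at a GC content of 49.3%. A PU.1 core also stood in a window of Cd53, of Cd37 and of Cd82, which were not called. The Cd81 window held 3 GC boxes, of which 2 lie whole in the printed stretch, at a GC content of 65.7%. It also held 1 match to TATAAA, which begins 6 bases after the RefSeq start and is not in the printed stretch. The Cd9 window held 2 GC boxes at 61.3%. Cd63 and Cd81 did not share any of these 5 letter patterns in these windows, and a match is only a description of letters. The RefSeq start of Cd63 lies 8356 bases downstream of the first exon base that GENCODE M21 gives for the gene, so another start is annotated.

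Cd63 (ENSMUSG00000025351) lies on chromosome 10 at 128900989 to 128912822, plus strand, and overlaps no other annotated gene. Its level was 509 TPM in WT replicate 1, 533 TPM in WT replicate 2 and 263 TPM in WT replicate 3. The 3 Lyz2cre libraries held 1089, 1160 and 1400 TPM, and the CD11ccre library 1323 TPM. Every Siah-deleted library thus lay above every WT library, and WT replicate 3 stood apart as the lowest. The mean was 435 ± 150 TPM over the WT libraries against 1216 ± 163 TPM over the Lyz2cre libraries (SD, n = 3 each). The log2 fold change was 1.54 ± 0.27 (SE, limma, adjusted p = 0.0201), with a 95% interval from 0.91 to 2.17. Relative to the median of all genes it was 1.71. Ranked by mean TPM among all genes, Cd63 moved from position 359 in WT to 105 in Lyz2cre and 79 in CD11ccre. Without WT replicate 3 the difference was 2.33-fold and without WT replicate 1 or 2 it was 3.05-fold or 3.15-fold. The call held without WT replicate 3 (adjusted p = 0.0235) but was lost without any other single WT or Lyz2cre library, with adjusted p from 0.0565 to 0.0927. Without the filter on low values the adjusted p was 0.0873, and without limma's mean-variance trend it was 0.0501.

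In CD11ccre, Cd63 was 3.04-fold above the WT mean, with a log2 fold change of 1.67 ± 0.38 (SE, limma, adjusted p = 0.0642). This passed the threshold without WT replicate 3 (adjusted p = 0.0457) and with a filter at a mean TPM of 5 (adjusted p = 0.0449). CD11ccre and Lyz2cre differed in Cd63 by 0.13 on the log2 scale, with a 95% interval from -0.76 to 1.02 (limma, adjusted p = 0.990). This interval still allows a difference in either direction.

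WT replicate 3 had Cd63 at 0.505 of the mean of the other WT libraries. Among 2469 genes with a mean of at least 50 TPM, 2.35% had a lower value of this ratio. Cd82 stood at 0.620 and Marco, a scavenger receptor of alveolar macrophages, at 0.416. Of the 7 tetraspanins, 4 had their lowest WT value in this library, as did 35.45% of all genes tested. Neutrophils also carry CD63, and their markers (4 of 7 at a mean of 1 TPM or more) summed to 44.8 to 94.0 TPM in the WT libraries, 106 to 141 TPM in the Lyz2cre libraries and 105 TPM in the CD11ccre library. The higher sum was mainly S100a8 (24.9 ± 8.70 TPM over the WT and 100.9 ± 23.5 TPM over the Lyz2cre libraries, SD, n = 3 each). The mean of S100a9 was lower in Lyz2cre (19.8 and 4.40 TPM), as was that of Csf3r (21.2 and 8.38 TPM). Cxcr2 had a higher mean in Lyz2cre (2.76 and 5.50 TPM) and stood at 6.65 TPM in CD11ccre. Retnlg averaged 0.25 and 0.607 TPM, and Ly6g and Camp were at 0 in every library. The part of neutrophil RNA in the Cd63 values was not tested.

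Cd81 (ENSMUSG00000037706) lies on chromosome 7 at 143052739 to 143067934, plus strand, with R74862 on the opposite strand. Its product is widely present on leukocytes and other cells. The WT libraries held 169, 129 and 162 TPM of Cd81. The Lyz2cre libraries held 248, 242 and 239 TPM, and CD11ccre 252 TPM. The groups did not overlap, and the Lyz2cre libraries lay closer together than the WT libraries. The means were 153 ± 21.3 TPM over the WT libraries against 243 ± 4.28 TPM over the Lyz2cre libraries (SD, n = 3 each). The log2 fold change was 0.67 ± 0.13 (SE, limma, adjusted p = 0.0258), with a 95% interval from 0.38 to 0.96. Relative to the median of all genes it was 0.83. The fold ranged from 1.47 to 1.67 when 1 WT library was left out. The call was lost on leaving out any WT or Lyz2cre library, with adjusted p from 0.0503 to 0.0942, without the filter on low values (adjusted p = 0.0633) and without the trend (adjusted p = 0.0697).

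In CD11ccre, Cd81 was 1.64-fold above the WT mean, a log2 fold change of 0.72 ± 0.18 (SE, limma, adjusted p = 0.0764). It passed the threshold with median-of-ratios scaling (adjusted p = 0.0258). Its difference between CD11ccre and Lyz2cre was 0.05 on the log2 scale, with a 95% interval from -0.36 to 0.47 (limma, adjusted p = 0.990).

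**Figure D1:**
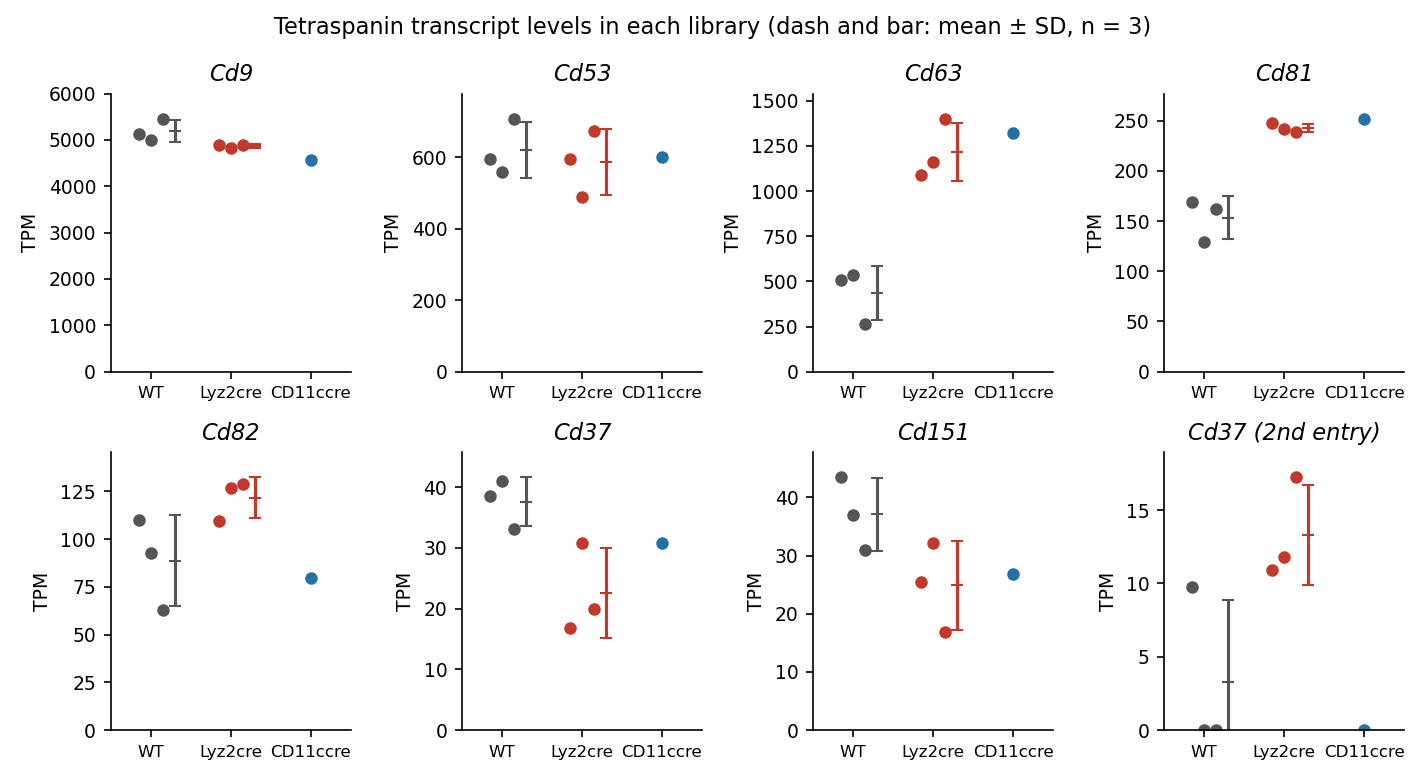
TPM of the 8 tetraspanin rows in each library, with each vertical axis starting at 0. Points are libraries, and the dash and bar beside WT and Lyz2cre give the mean ± SD (n = 3), cut at 0 for the second Cd37 row, while CD11ccre is a single library. All Lyz2cre and CD11ccre points lie above all WT points for Cd63 and Cd81.

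Cd9 was by far the most abundant tetraspanin and changed little. Cd9 (ENSMUSG00000030342), whose product binds immunoglobulin-superfamily partners and restrains macrophage fusion, lies on chromosome 6 at 125460266 to 125494791, minus strand. The predicted genes Gm28809 and Gm26728 lie on the opposite strand. Its level was 5120, 4994 and 5458 TPM in the WT libraries. It was 4903, 4821 and 4886 TPM in the Lyz2cre libraries and 4576 TPM in the CD11ccre library. The groups did not overlap in TPM, and the Siah-deleted libraries were the lower ones. The means were 5191 ± 240 TPM (SD, n = 3) and 4870 ± 43.0 TPM (SD, n = 3), and the log2 fold change was -0.09 ± 0.08 (SE, limma, adjusted p = 0.543). Its 95% interval ran from -0.28 to 0.10. This direction rested on the scaling, since the estimate was 0.09 with median-of-ratios scaling, 0.47 with quantile normalization (adjusted p = 0.0308) and 0.07 after rescaling without Ftl1, Fth1, Chil3 and Lyz2. Platelets are rich in CD9, and their markers (1 of 6 at a mean of 1 TPM or more, Gp9 at 0 everywhere) summed to at most 11.5 TPM in any library. Relative to the median of all genes Cd9 stood at 0.07 in Lyz2cre and 0.11 in CD11ccre.

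Cd53 (ENSMUSG00000040747), a leukocyte tetraspanin, lies on chromosome 3 at 106759921 to 106790149, minus strand, and overlaps no other gene. The WT libraries held 596, 558 and 708 TPM of Cd53, the Lyz2cre libraries 595, 490 and 674 TPM, and CD11ccre 600.5 TPM. The groups overlapped almost wholly. The log2 fold change was -0.09 in Lyz2cre, with a 95% interval from -0.44 to 0.26 (limma, adjusted p = 0.771), and -0.04 in CD11ccre, with an interval from -0.53 to 0.45 (adjusted p = 0.931). Both estimates were above 0 with median-of-ratios scaling, at 0.10 and 0.28.

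Cd37, the other leukocyte-restricted member and one best known in B cells, could not be given a single direction. Its main row (ENSMUSG00000030798, chromosome 7 at 45233632 to 45239115, minus strand, with Tead2 on the opposite strand) held 38.5, 41.0 and 33.1 TPM in the WT libraries. The Lyz2cre libraries held 16.9, 30.8 and 20 TPM, and CD11ccre 30.8 TPM. The Lyz2cre values lay below all WT values, and the log2 fold change was -0.75 ± 0.23 (SE, limma, adjusted p = 0.0950). The second Cd37 row (ENSMUSG00000109208), an identifier that is absent from GENCODE M21, moved the other way. It was listed at 9.77, 0 and 0 TPM in the WT libraries, at 10.9, 11.8 and 17.2 TPM in the Lyz2cre libraries and at 0 in CD11ccre. Its log2 fold change in Lyz2cre was 2.67 ± 0.88 (SE, limma, adjusted p = 0.118), and it was called when WT replicate 1 was left out (3.81, adjusted p = 0.0148). Reads of one gene may have been divided between these rows. Their sum was 48.3, 41.0 and 33.1 TPM in the WT libraries, 27.8, 42.6 and 37.2 TPM in the Lyz2cre libraries and 30.8 TPM in the CD11ccre library. The summed groups overlapped, with a log2 fold change of -0.19 (limma, adjusted p = 0.624). This sum was formed after the values were seen. Of 7 B cell markers, 2 had a mean of 1 TPM or more, and their sum was 6.96 to 17.6 TPM in the WT libraries, 0.42 to 2.76 TPM in the Lyz2cre libraries and 1.70 TPM in the CD11ccre library. Most of that sum in WT was the immunoglobulin gene Igkc, and the part of B cell RNA in the Cd37 values was not tested.

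Cd82 and Cd151, whose products bind integrins and modulate adhesion and migration, moved in opposite directions in Lyz2cre without passing the test. Cd82 (ENSMUSG00000027215) lies on chromosome 2 at 93419111 to 93463140, minus strand, with the microRNA gene Mir7001 on the same strand and Gm10804 on the opposite strand. It held 110.2, 93.0 and 63.0 TPM in the WT libraries, 109, 127 and 129 TPM in the Lyz2cre libraries and 79.7 TPM in the CD11ccre library. WT replicate 1 reached the lowest Lyz2cre library, and CD11ccre lay within the WT range. The log2 fold change was 0.48 ± 0.21 in Lyz2cre (SE, limma, adjusted p = 0.201) and -0.12 in CD11ccre (adjusted p = 0.847). CD11ccre stood 0.60 below Lyz2cre on the log2 scale, with a 95% interval of the difference from -1.28 to 0.08 (limma, adjusted p = 0.842). Cd151 (ENSMUSG00000025510), partner of laminin-binding integrins, lies on chromosome 7 at 141467392 to 141471473, plus strand, with Gm10575 on the opposite strand. It held 43.5, 36.9 and 31.0 TPM in the WT libraries, 25.5, 32.2 and 16.9 TPM in the Lyz2cre libraries and 26.8 TPM in the CD11ccre library. WT and Lyz2cre overlapped by 1 library on either side. The log2 fold change was -0.59 ± 0.25 in Lyz2cre (SE, limma, adjusted p = 0.193) and -0.44 in CD11ccre (adjusted p = 0.494).

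Counting the main row of each gene, 4 of 7 tetraspanins had WT and Lyz2cre libraries that did not overlap in TPM, Cd63 and Cd81 upward and Cd9 and Cd37 downward. Over all genes tested this share was 30.8%, made up of 7.45% upward and 23.3% downward. For each of these 4 genes the exact two-sided permutation test of mean TPM gave p = 0.1, the smallest that 3 against 3 libraries allow. The same exact permutation test gave p = 0.2 for Cd82, 0.2 for Cd151 and 0.7 for Cd53. The CD11ccre library lay outside the WT range for 5 of 7 genes, above it for Cd63 and Cd81 and below it for Cd9, Cd37 and Cd151. Over all genes tested, 63.5% lay outside that range, 13.0% above and 50.5% below it, so such counts say little about single genes.

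Leaving aside Cd37 and Cd151, the order of the tetraspanins by mean TPM differed between WT and the deleted groups at a single place. In WT the mean levels ran from Cd9 through Cd53, Cd63, Cd81 and Cd82 to Cd37 and Cd151. In Lyz2cre and CD11ccre, Cd63 stood above Cd53. In Lyz2cre the mean of Cd151 (24.9 TPM) also stood above that of the main Cd37 row (22.6 TPM). The ranges of neighbours in this order did not overlap in WT or Lyz2cre, apart from Cd37 and Cd151, whose levels could not be ordered in either group. The 7 genes and the 24 other tetraspanins found in the table together summed to 6658 to 7000 TPM in the WT libraries. That sum was 7210 to 7705 TPM in the Lyz2cre libraries and 7198 TPM in the CD11ccre library. Within that sum, Cd9 made up 74.3%, 75.0% and 78.0% in WT, 67.2%, 66.9% and 63.4% in Lyz2cre and 63.6% in CD11ccre. Cd63 made up 7.39%, 8.01% and 3.76% in WT, 14.9%, 16.1% and 18.2% in Lyz2cre and 18.4% in CD11ccre. Every deleted library thus had a larger share of Cd63 and a smaller share of Cd9 than every WT library, while the TPM of Cd9 itself moved little.

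Ratios of 2 genes within a library do not depend on how the library is scaled. The ratio of Cd63 to Cd9 was 0.0995, 0.107 and 0.0482 in WT, 0.222, 0.241 and 0.287 in Lyz2cre and 0.289 in CD11ccre. The ratio of Cd81 to Cd9 was 0.0330, 0.0259 and 0.0297 in WT, 0.0505, 0.0502 and 0.0489 in Lyz2cre and 0.0551 in CD11ccre. In both, every deleted library lay above every WT library. Against Lamp1, which encodes a major protein of the lysosomal membrane, Cd63 stood at 0.583, 0.678 and 0.318 in WT. It stood at 1.00, 1.13 and 1.23 in Lyz2cre and at 1.27 in CD11ccre. Cd63 thus differed more between the groups than Lamp1, which was itself at 830 ± 43.5 TPM in the WT libraries and 1082 ± 57.2 TPM in the Lyz2cre libraries (SD, n = 3 each, limma, adjusted p = 0.0526). Against Cd68, a macrophage lysosomal glycoprotein, the mean ratio of Cd63 was 1.70-fold higher in Lyz2cre than in WT, and against Cd81 it was 1.72-fold higher. These ratios were chosen after the levels were known and are given without a test.

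**Figure D2:**
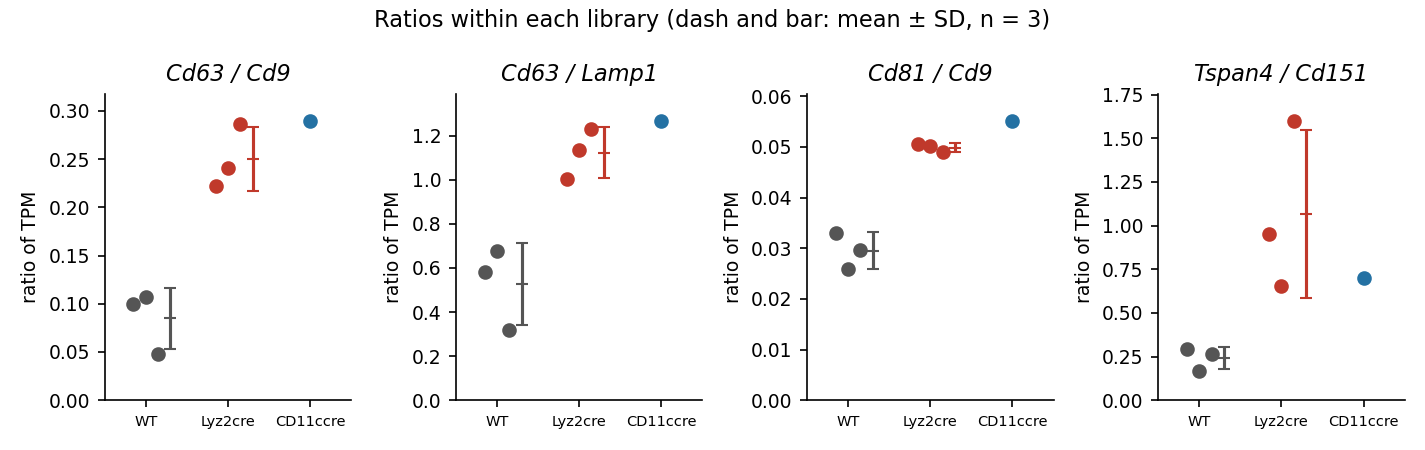
Ratio of the TPM of 2 genes within each library, with each vertical axis starting at 0. Points are libraries, and the dash and bar give the mean ± SD (n = 3) of WT and Lyz2cre. In all 4 panels the Lyz2cre and CD11ccre libraries lie above every WT library.

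Of 26 other tetraspanin genes, 24 were in the table, and 7 of these were listed at 0 in every library. A further 8 had a mean under 1 TPM and none of these exceeded 0.95 TPM in any library, which left 9 tested. In Lyz2cre 1 was called higher (Tspan4) and 0 lower, with a median log2 fold change of 0.15 beside -0.16 over all genes. The shares called over all genes were 2.17% higher and 4.60% lower. In CD11ccre limma called 0 of the 9, against 2.89% of all genes (0.895% higher and 1.99% lower). Their median log2 fold change was 0.34 there, beside -0.29 over all genes.

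Tspan4, a gene known for the migration-associated vesicles called migrasomes, lies 3766 bp from Cd151 on chromosome 7 with 1 coding gene, Polr2l, between them. The WT libraries held 12.7, 6.25 and 8.18 TPM of Tspan4, the Lyz2cre libraries 24.3, 21.1 and 27.1 TPM, and CD11ccre 18.8 TPM. All deleted libraries exceeded all WT libraries. The difference was 2.67-fold, a log2 fold change of 1.37 ± 0.25 (SE, limma, adjusted p = 0.0234) with a 95% interval from 0.78 to 1.95. Chid1 overlaps Tspan4 on the opposite strand, and the strand setting of the authors' counting is not given in the sources used here. The call was lost without WT replicate 2 or 3 or any 1 Lyz2cre library, with adjusted p from 0.0722 to 0.103, and without the filter on low values (adjusted p = 0.0806). In CD11ccre Tspan4 was 2.08-fold above WT (limma, adjusted p = 0.150). The ratio of Tspan4 to its neighbour Cd151 was 0.293, 0.169 and 0.264 in WT, 0.951, 0.656 and 1.60 in Lyz2cre and 0.702 in CD11ccre, so these close neighbours did not move in parallel.

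Tspan32, a leukocyte tetraspanin, is the next coding gene to Cd81 at a gap of 33094 bp. It held 62.2, 73.5 and 67.9 TPM in the WT libraries, 60.4, 72.5 and 92.3 TPM in the Lyz2cre libraries and 85.9 TPM in the CD11ccre library. Its groups overlapped, with a log2 fold change of 0.13 in Lyz2cre (limma, adjusted p = 0.703). Tspan31, a gene that overlaps Cdk4 on the opposite strand, stood at 72.3 ± 10.3 TPM in the WT libraries and 75.2 ± 2.42 TPM in the Lyz2cre libraries (SD, n = 3 each, limma, adjusted p = 0.813). Tspan14 belongs to the TspanC8 subfamily, whose products escort the protease ADAM10 to the cell surface. It held 95.05, 91.8 and 97.2 TPM in the WT libraries, 81.5, 75.1 and 76.0 TPM in the Lyz2cre libraries and 70.7 TPM in the CD11ccre library. All deleted libraries were below all WT libraries, but the log2 fold changes of -0.28 in Lyz2cre (limma, adjusted p = 0.144) and -0.42 in CD11ccre (adjusted p = 0.157) did not pass the test. Of 7 genes, the TspanC8 subfamily plus Adam10, 4 were tested and limma called 0 in either comparison. Over all genes tested, 6.76% were called in Lyz2cre and 2.89% in CD11ccre. Tspan5 and Tspan14 moved in opposite directions in Lyz2cre, at log2 fold changes of 0.50 and -0.28, each with an unadjusted limma p under 0.05.

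**Figure D3:**
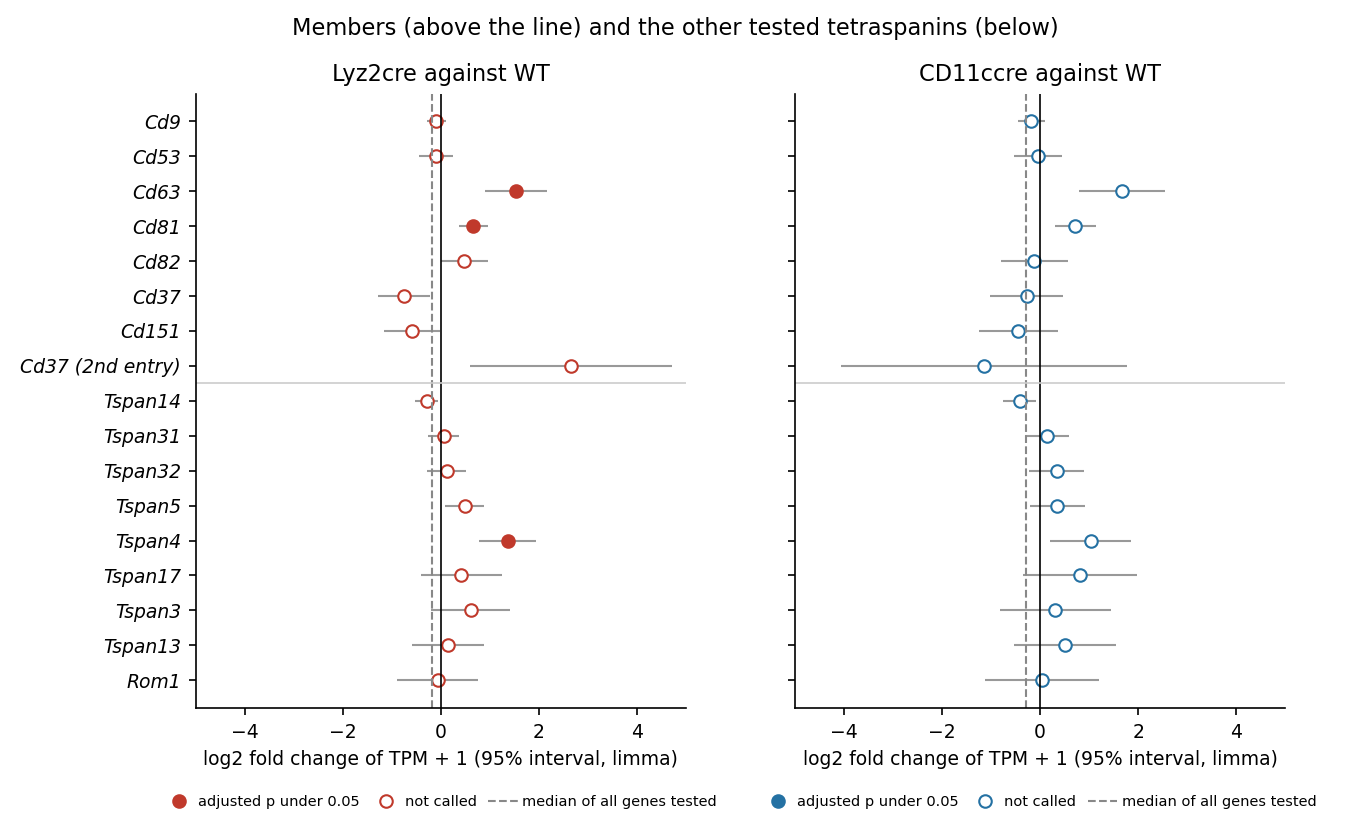
Log2 fold change of TPM + 1 against WT for the 8 tetraspanin rows (above the grey line) and the 9 other tetraspanins tested (below it), in Lyz2cre (left) and CD11ccre (right). Bars are 95% intervals from limma, filled points have an adjusted p under 0.05, and the dashed line is the median of all genes tested. Filled points are Cd63, Cd81 and Tspan4 in Lyz2cre.

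The genes that tetraspanins work with did not rise as a group beside Cd63 and Cd81. Tested surface partners numbered 24 and include integrin subunits, immunoglobulin-superfamily partners and MHC class II molecules. In Lyz2cre 1 was called higher, 7 lower and 16 not, with a median log2 fold change of -0.31. Over all genes tested, 2.17% were called higher and 4.60% lower in this comparison, with a median of -0.16. The 7 that fell were Epcam, an epithelial adhesion molecule, and Cd74, H2-Aa, H2-Ab1, H2-DMa, H2-DMb1 and H2-Eb1, which serve MHC class II presentation. Among them H2-DMb1, a subunit of the peptide-loading factor that CD63 and CD82 accompany in late endosomes, was 2.57-fold lower (114 ± 11.8 TPM in the WT libraries, 44.5 ± 5.24 TPM in the Lyz2cre libraries, SD, n = 3 each, limma, adjusted p = 0.00395). Cd74, the invariant chain of MHC class II, was 8.30-fold lower (adjusted p = 0.00395). H2-Aa, a class II subunit, was 12.2-fold lower (adjusted p = 0.00529) and Epcam 22.7-fold lower (adjusted p = 0.00207). The 1 partner that rose was the scavenger receptor Cd36, named for being the only one, at 319 ± 15.9 TPM in the WT libraries and 506 ± 47.6 TPM in the Lyz2cre libraries (SD, n = 3 each, limma, adjusted p = 0.0154). Its call was lost without WT replicate 1 or 2, Lyz2cre replicate 1 or 3 (adjusted p from 0.0503 to 0.0667) or the trend (0.0579). In CD11ccre 0 partners were called higher and 5 lower, with a median of -0.45. Over all genes tested in CD11ccre against WT, 0.895% were called higher and 1.99% lower, with a median of -0.29. Among marker lists of other cells that carry class II or Epcam, some had lower sums in Lyz2cre and others did not. B cell markers (2 of 7 at a mean of 1 TPM or more) summed to 6.96 to 17.6 TPM in the WT libraries. They summed to 0.42 to 2.76 TPM in the Lyz2cre libraries and 1.70 TPM in the CD11ccre library. Dendritic cell markers (2 of 7 at a mean of 1 TPM or more) summed to 6.38 to 24.9 TPM in the WT libraries, 2.26 to 6.01 TPM in the Lyz2cre libraries and 2.56 TPM in the CD11ccre library. Airway club and ciliated markers (6 of 8) summed to 383 to 554 TPM, 154 to 379 TPM and 322 TPM. In the dendritic cell and airway lists the lower sum was mainly 1 gene. This was Batf3 among dendritic cell markers (a mean of 14.9 TPM over the WT and 0.98 TPM over the Lyz2cre libraries) and Tppp3 among airway markers (286 and 87.9 TPM). Other members of these 2 lists had higher means in Lyz2cre, such as Clec9a (0.593 and 1.80 TPM) and Scgb1a1 (149 and 194 TPM). Clec9a stood at 0.60 TPM in CD11ccre, and Ccr7 had a lower mean in Lyz2cre (0.593 and 0.16 TPM). Alveolar type 1 markers (3 of 6) summed to 14.4 to 30.7 TPM in the WT libraries, 47.1 to 57.4 TPM in the Lyz2cre libraries and 36.9 TPM in the CD11ccre library. The higher type 1 sum was mainly Pdpn (a mean of 10.8 TPM over the WT and 41.55 TPM over the Lyz2cre libraries), while Ager was lower (5.14 and 1.29 TPM). Alveolar type 2 markers (5 of 9) summed to 88.4 to 95.8 TPM, 78.6 to 97.3 TPM and 72.3 TPM. In that list the mean of Napsa was lower in Lyz2cre (52.6 and 30.1 TPM) and that of Sftpc higher (18.15 and 29.7 TPM). The part of these cells in the partner values was not tested.

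Tested genes of late endosome sorting and exosome release, the route by which CD63 leaves the cell, numbered 22. In Lyz2cre 0 were called higher and 3 lower, with a median log2 fold change of 0.06. The shares called over all genes were 2.17% higher and 4.60% lower, with a median of -0.16. Tsg101, a subunit of the ESCRT-I sorting complex, stood at 62.9 ± 1.07 TPM in the WT libraries and 42.2 ± 0.843 TPM in the Lyz2cre libraries (SD, n = 3 each), 1.49-fold lower (limma, adjusted p = 0.0259). Vps25, of ESCRT-II, was 1.46-fold lower (102 ± 10.2 against 69.6 ± 2.93 TPM, SD, n = 3 each, limma, adjusted p = 0.0416). Pld2, a phospholipase D that acts in exosome budding, was 1.72-fold lower (33.6 ± 5.82 against 19.5 ± 0.545 TPM, SD, n = 3 each, limma, adjusted p = 0.0382). Among 18 other settings the call held in 8 for Tsg101, 6 for Vps25 and 7 for Pld2. Each was lost without WT replicate 1, WT replicate 2 or any 1 Lyz2cre library, and that of Vps25 also without WT replicate 3, with adjusted p from 0.0508 to 0.138. Each was also lost with median-of-ratios scaling, at adjusted p = 0.0902 for Tsg101, 0.167 for Vps25 and 0.103 for Pld2. Over all genes tested in CD11ccre against WT, 2.89% were called. In CD11ccre 1 of the 22 was called, Vps25 at 51.2 TPM (limma, adjusted p = 0.0341), which was lost on leaving out any 1 WT or Lyz2cre library (adjusted p from 0.0568 to 0.0830).

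Tested genes of the lysosome and late endosome membrane, the compartment of CD63, numbered 15. In Lyz2cre 2 were called higher and 0 lower, with a median log2 fold change of -0.07. The shares called over all genes were 2.17% higher and 4.60% lower, with a median of -0.16. Gpnmb, a lysosomal glycoprotein of lipid-laden macrophages, was 3.58-fold higher (172 ± 13.2 TPM in the WT libraries, 616 ± 50.7 TPM in the Lyz2cre libraries, SD, n = 3 each, limma, adjusted p = 0.000780). Cd68 was 1.61-fold higher (784 ± 49.5 against 1262 ± 99.0 TPM, SD, n = 3 each, limma, adjusted p = 0.0116). The call of Cd68 was lost without WT replicate 1, WT replicate 2 or Lyz2cre replicate 3 (adjusted p from 0.0513 to 0.0601) and without the trend (0.0515). Over all genes tested in CD11ccre against WT, 2.89% were called, with a median log2 fold change of -0.29. In CD11ccre only Gpnmb was called among the 15 (590 TPM, adjusted p = 0.00707), with a median of 0.02.

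Among 6352 genes with a mean of at least 10 TPM, the 3 whose pattern over the 7 libraries was most like that of Cd63 were Aldh2, Marco and Maoa. Likeness was the root-mean-square difference of centred log2(TPM + 1), which was 0.146 for Aldh2, 0.196 for Marco and 0.254 for Maoa. Aldh2, a mitochondrial aldehyde dehydrogenase, held 177, 160 and 71.6 TPM in the WT libraries, 307, 368 and 382 TPM in the Lyz2cre libraries and 331 TPM in the CD11ccre library. Marco held 479, 594 and 223 TPM in the WT libraries, 1375, 1456 and 1417 TPM in the Lyz2cre libraries and 1420 TPM in the CD11ccre library. Both shared with Cd63 the low value in WT replicate 3. Without that library, 1 of these 3 genes remained among the 3 most alike. The 3 genes most like Cd81 were Anxa4 (0.0693), Sord (0.0824) and Snx9 (0.0992). Anxa4, an annexin, held 261, 208 and 230 TPM in the WT libraries, 377, 351 and 357 TPM in the Lyz2cre libraries and 349 TPM in the CD11ccre library. Without WT replicate 3, 1 of these 3 remained among the most alike, and without Lyz2cre replicate 2 it was 0.

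**Figure D4:**
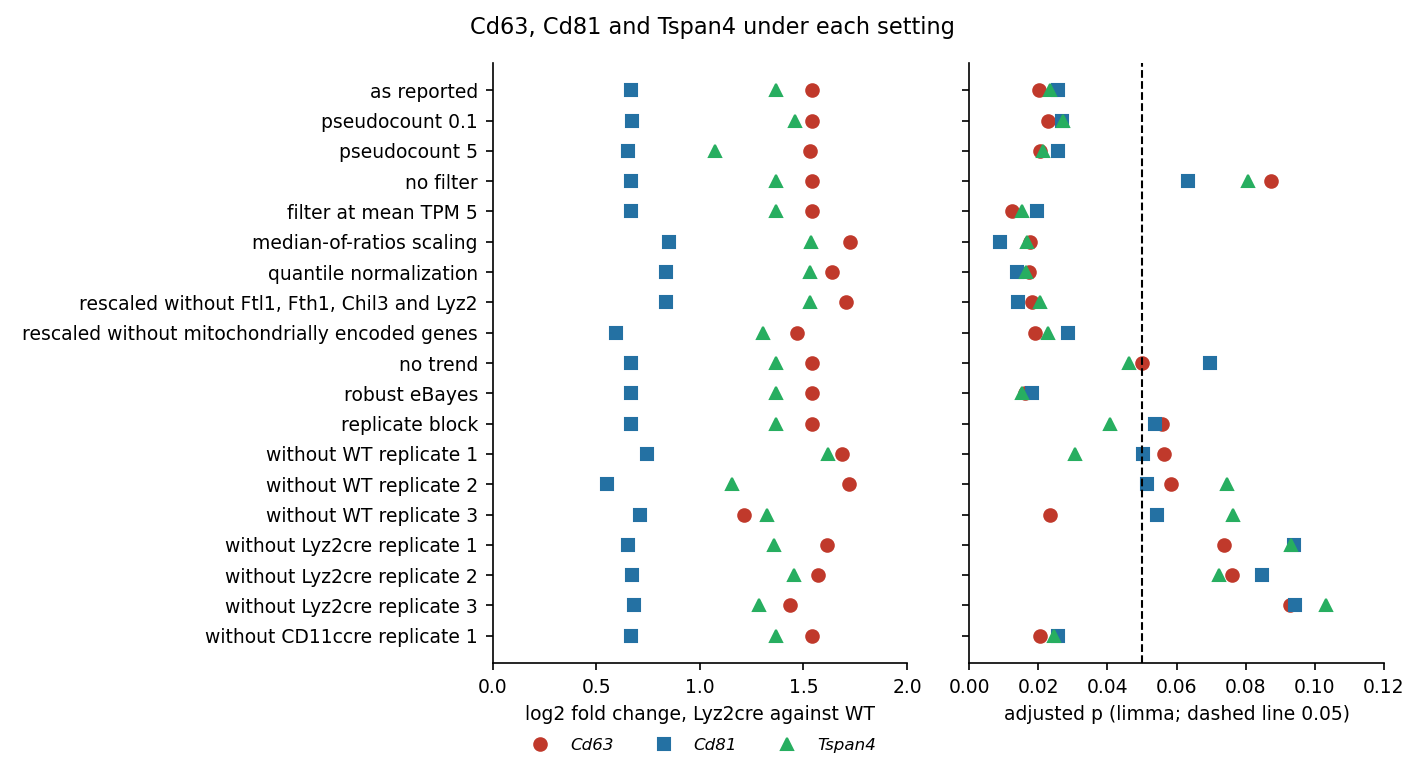
Log2 fold change (left) and adjusted p (right) of Cd63, Cd81 and Tspan4 in Lyz2cre against WT, as reported and under each of 18 other settings, from limma. The dashed line marks the threshold of 0.05. All estimates lie above 0, while the adjusted p lies under the threshold in 10 of the 18 settings for Cd63, 9 for Cd81 and 12 for Tspan4.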

How the data were processed

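RNA-seq libraries of mouse alveolar macrophages fell by title into the groups WT (3 libraries), Lyz2cre (3) and CD11ccre (1). Per the labels' protocols, poly(A) RNA was made into directional libraries and read from one end. The authors deposited 1 table of TPM. The tools cutadapt 2.3, STAR 2.7.0d and RSEM 1.3.1 and the mm10 build are listed in the submitters' processing notes. For the annotation release and strand setting, the sources used here give nothing. The members and gene lists were chosen with earlier results of these data known.

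Genes whose mean reached 1 TPM (11397) were tested as log2(TPM + 1) with limma 3.58.1 (R 4.3.3). A single fit of the 7 libraries had 1 coefficient for each genotype and a mean-variance trend, with 4 residual and 3.35 prior degrees of freedom, so the single CD11ccre library is assumed to vary like the others. The two-sided tests were corrected over all genes by the Benjamini-Hochberg method at a threshold of 0.05. The fit was tested on simulated data. Mean TPM was also compared by exact two-sided permutation, which cannot go below 0.1.

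Named genes were the members, other tetraspanins that were called or had a mean of at least 20 TPM, the called genes of each list with the smallest p (at most 4), and the 3 genes most like each called member. Genes outside this rule were named after their values were seen. Coordinates are from GENCODE M21 on GRCm38, to which 47224 of 47643 identifiers matched. Upstream sequences are from RefSeq. Alternatives changed the pseudocount, filter, scaling, variance model, replicate block and libraries.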

Additional observations from a re-analysis of the deposited data

How the results depend on the processing

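The number of tetraspanin rows called in Lyz2cre against WT was 2 as reported and 0 without the filter on low values, without the mean-variance trend and with the replicate block. It was 0 to 2 when 1 library was left out. The block, and any omitted WT or Lyz2cre library, lowers the residual degrees of freedom. The number of other listed genes called in Lyz2cre was 14, and it was 9 without the filter, 9 without the trend and 7 to 14 when 1 library was left out. In CD11ccre against WT, the tetraspanin count of 0 became 1 with a filter at a mean TPM of 5 and 1 with median-of-ratios scaling, and was 0 to 1 when 1 library was left out. The count of other listed genes there was 7, and 2 without the trend, 3 with the replicate block and 1 to 5 when 1 library was left out. Between CD11ccre and Lyz2cre the tetraspanin count was 0 to 1 when 1 library was left out. The 4 non-overlapping members became 4 to 5 when 1 library was left out, 3 with median-of-ratios scaling, 3 after rescaling without Ftl1, Fth1, Chil3 and Lyz2, and 5 after rescaling without mitochondrially encoded genes. Over all genes, the 771 called in Lyz2cre became 544 with median-of-ratios scaling, 342 without the filter, 436 without the trend and 390 with the block. Same-numbered WT and Lyz2cre libraries had deviation correlations of -0.0149, 0.0431 and 0.0656, and those of differently numbered libraries ran from -0.0975 to 0.0599. Such values cannot show whether the replicate numbers pair the samples, and the labels used here name no pairing. Under that block Cd63 had an adjusted p of 0.0557 and Cd81 of 0.0537 at unchanged fold changes.

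Signs changed for small estimates that were not called as reported (log2 scale). With median-of-ratios scaling Cd9 was 0.093 and Cd53 0.096 in Lyz2cre, and in CD11ccre Cd9 was 0.14, Cd37 0.040, Cd53 0.28 and Cd82 0.20. With quantile normalization Cd9 was 0.47 in Lyz2cre and 0.30 in CD11ccre, where Cd37 was 0.030, Cd53 0.12 and Cd82 0.14. Rescaling without Ftl1, Fth1, Chil3 and Lyz2 gave Cd9 0.075 and Cd53 0.078 in Lyz2cre, and Cd9 0.049, Cd53 0.19 and Cd82 0.11 in CD11ccre. Rescaling without mitochondrially encoded genes gave Tspan31 -0.0062 in Lyz2cre. When 1 library was left out, estimates in Lyz2cre ran from -0.19 to 0.035 for Cd53, from -0.053 to 0.15 for Tspan31 and from -0.033 to 0.27 for Tspan32. In CD11ccre they ran from -0.11 to 0.058 for Cd53 and from -0.34 to 0.058 for Cd82. Between CD11ccre and Lyz2cre they ran from -0.076 to 0.15 for Cd53 and from -0.095 to 0.35 for Cd151, while Cd9 was 0.048 with median-of-ratios scaling, Cd37 -0.19 with its rows summed, and Cd81 -0.036 and Cd151 -0.010 with the block. The cause was not tested for any of these. Depth is unknown, so its part in the spread of low genes was not tested.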
